A study of Rattus norvegicus with 8 samples.

Results

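Hsf1, the transcription factor heat shock factor 1, and 9 genes around it were followed in the lumbar spinal cord of stressed and control rats. The 10 genes are Hsf1, Hsf2, Hspa8, Hspa4, Hsph1, Hsp90aa1, Hsp90ab1, Hspb1, Hspd1 and Bag3. They are covered by 17 of the 30367 different probes on the array, found by the gene name in the scanner files, out of 26514 names in that column. The genes were chosen from the stress contrast itself, because Hsf1 passed the threshold there while genes it is known to control did not. The stress minus control values of the 10 genes are therefore given as a description and no p value is attached to them. Counts of their probes that pass a threshold are likewise only a description. Hspd1 is grouped here with cytosolic heat shock proteins, although its product HSP60 is the chaperonin of the mitochondrial matrix.

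Male Wistar rats of 12 weeks were either exposed to water avoidance (WA) stress on 10 consecutive days (4 rats) or handled as controls (4 rats). In WA stress a rat stays on a small platform surrounded by water in daily sessions. The L6S1 segment of the spinal cord, which receives sensory input from the pelvic organs, was taken 24 h after the last stressor, and RNA of each rat was measured on 1 Agilent 1-colour array. All 8 arrays were on 1 slide, where row 1 held the stress group and row 2 the control group, so row and stress cannot be told apart.

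HSF1 is held inactive by chaperones in resting cells. When unfolded proteins draw the chaperones away, it forms trimers, enters the nucleus and binds heat shock elements, which are repeats of a short unit in alternating orientation, in the promoters of chaperone genes. HSP70 proteins bind exposed hydrophobic stretches of their clients, HSP40 partners deliver the clients, HSP110 and BAG proteins release nucleotide from HSP70, HSP90 proteins finish the folding of kinases and steroid receptors, and small heat shock proteins hold unfolded proteins in solution. Much of HSF1 activity is set on the protein, by phosphorylation and binding partners, which arrays do not measure.

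A value below is the log2 signal of a probe minus the 75th percentile of its array, so 0 is the level of the 75th percentile. Differences are stress minus control on this log2 scale, with the standard error (SE) of the fit across all probes. As probes differ in how well they bind, levels are compared between rats for the same probe and not between probes. All 17 probes were well above background on all 8 arrays, and no spot of theirs was saturated.

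The part of the transcript that a probe reads matters for the values that follow, so the 5′ ends of 4 probes of 60 bases are shown. They are the single probes of Hsf1 and Hsph1, and the probes of Hspa8 that lie nearest to and farthest from the 5′ end of its transcript among the probes that list no other RefSeq transcript. The first 30 bases of each are printed, 5′ to 3′, as the scanner files give them.
Hsf1, from base 1844 of the transcript, rn4 chr7:114550596-114550655, plus strand: gagacaagacagttgggtagtccagggaat
Hspa8, from base 523, rn4 chr8:43785470-43785529, plus strand: ttacttcaatgactctcagcgacaggcaac
Hspa8, from base 1860, rn4 chr8:43787518-43787576, plus strand: aatcagcagaaagaactggagaaggtctgc
Hsph1, from base 2410, rn4 chr12:5809732-5809791, plus strand: gaaatacaaccacatagatgaatctgaaat
The coordinates are those given for the whole probe of 60 bases, but for the Hspa8 probe from base 1860 they span 59 bases. Exons and UTRs were not analysed here, as no annotation of this assembly was used.

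Promoters of the genes were searched for heat shock elements, since the way these genes are tied to HSF1 runs through them. RefSeq promoter windows of the GRCr8 assembly, which reach from 250 bases before to 50 bases after the start of the gene, were found for 8 of the 10 genes, and those of Hsf1 and Hsp90aa1 were not used here. The letters searched were 2 adjoining units, GAANNTTC or TTCNNGAA, and 3 adjoining units, the same pattern carried on by another GAA or TTC after a gap of 2 bases. Each 2-unit pattern is its own reverse complement and the 3-unit patterns are reverse complements of each other, so both strands are covered, and a 3-unit match contains 2 overlapping 2-unit matches. At least 2 units were present in 5 of the 8 windows, against 15.9% of all 33469 promoter windows. At least 3 units were present in 3 of the 8 windows, those of Hspa8, Hsph1 and Hspd1, against 0.798% of all windows. Because the choice was for genes that HSF1 is known to control, it favours such matches, and nothing is read from these shares. The 3-unit matches of Hspa8 and Hsph1 and the match of Hspd1, which has 4 units, are printed on the strand of the gene. Up to 15 bases are shown on either side, and the matched letters are in capitals.
Hspa8, from 213 bases before the start, GRCr8 chr8:50080286-50080328: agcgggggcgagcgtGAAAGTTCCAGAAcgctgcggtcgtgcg
Hspa8, from 55 bases before the start, GRCr8 chr8:50080444-50080486: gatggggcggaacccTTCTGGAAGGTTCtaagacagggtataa
Hsph1, from 36 bases before the start, GRCr8 chr12:10427317-10427359: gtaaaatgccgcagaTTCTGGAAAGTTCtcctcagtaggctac
Hspd1, minus strand, from 242 bases before the start, GRCr8 chr9:64084247-64084287: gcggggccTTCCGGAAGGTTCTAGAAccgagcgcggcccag
The Hspd1 match at GRCr8 chr9:64084262-64084279 is also the match in the window of Hspe1, which encodes HSP10, the partner of HSP60, and is read in the opposite direction from the same stretch. Matches of 2 units were present in the windows of Hspb1, from 129 and from 109 bases before the start, and of Bag3, from 132 bases before it. Hsph1 also had a separate match of 2 units, from 105 bases before the start. No match was found in the windows of Hsf2, Hspa4 and Hsp90ab1. These are matches of letters, and binding of HSF1 was not measured.

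One control array stood apart from the other 3. The 5′ minus 3′ balance of an array says how bright it is at the front of transcripts against their rear. For 1885 transcripts that carry probes separated by 300 bases or more, the log2 signal at the 3′ end was subtracted from that at the 5′ end, the mean over the 8 arrays was set to 0, and the median of an array was taken. The balance lay between 0.09 and 0.17 in the stressed rats and at -0.30, -0.30 and -0.18 in control replicates 1, 3 and 4, but at 0.22 in control replicate 2. On the first principal component, with 54.1% of the variance, control replicate 2 lay at 46.1, among or beyond the stressed rats at 8.23 to 34.5, and the other controls lay between -56.3 and -39.4. The balance thus moved with stress in 7 of 8 arrays, and the differences of the 10 genes and of the named chaperone genes are given with and without control replicate 2 and with the balance as a covariate. Markers of neurons, astrocytes, oligodendrocytes, microglia and endothelial cells were detected in all lists, with 6 of 7 neuronal genes (Rbfox3 was not found by name) and every gene of the other 4. The summed level of the 4 Schwann cell markers, from nerve roots, varied by rat, from -1.76 to 5.73 in controls and from -1.82 to 3.74 under stress, and its part in the results was not tested. In bulk tissue, fewer cells of a type and less RNA per cell cannot be told apart.

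Hsf1 signal was lower in stressed rats. The probe of Hsf1 had values of -0.38, -0.29, -0.23 and -0.25 in control replicates 1 to 4 and of -0.71, -0.84, -0.76 and -0.73 in stress replicates 1 to 4. The lowest control rat lay above the highest stressed rat, and control replicate 2 lay among the other controls. Before scaling, the signal of the probe was 1509 to 1970 units in controls and 1040 to 1172 units under stress. These unscaled values still hold the brightness of each array, whose 75th percentile was 1841 to 2335 units in controls and 1751 to 1945 under stress. The group means were -0.29 ± 0.07 (SD, n = 4) and -0.76 ± 0.06 (SD, n = 4), which is a difference of -0.47 (SE 0.07), or 0.721 times the control level. The difference was -0.47 without control replicate 2 and -0.48 with the balance as a covariate, so it was as large in both. Hsf1 has a single probe, and no second probe checks it.

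**Figure D1:**
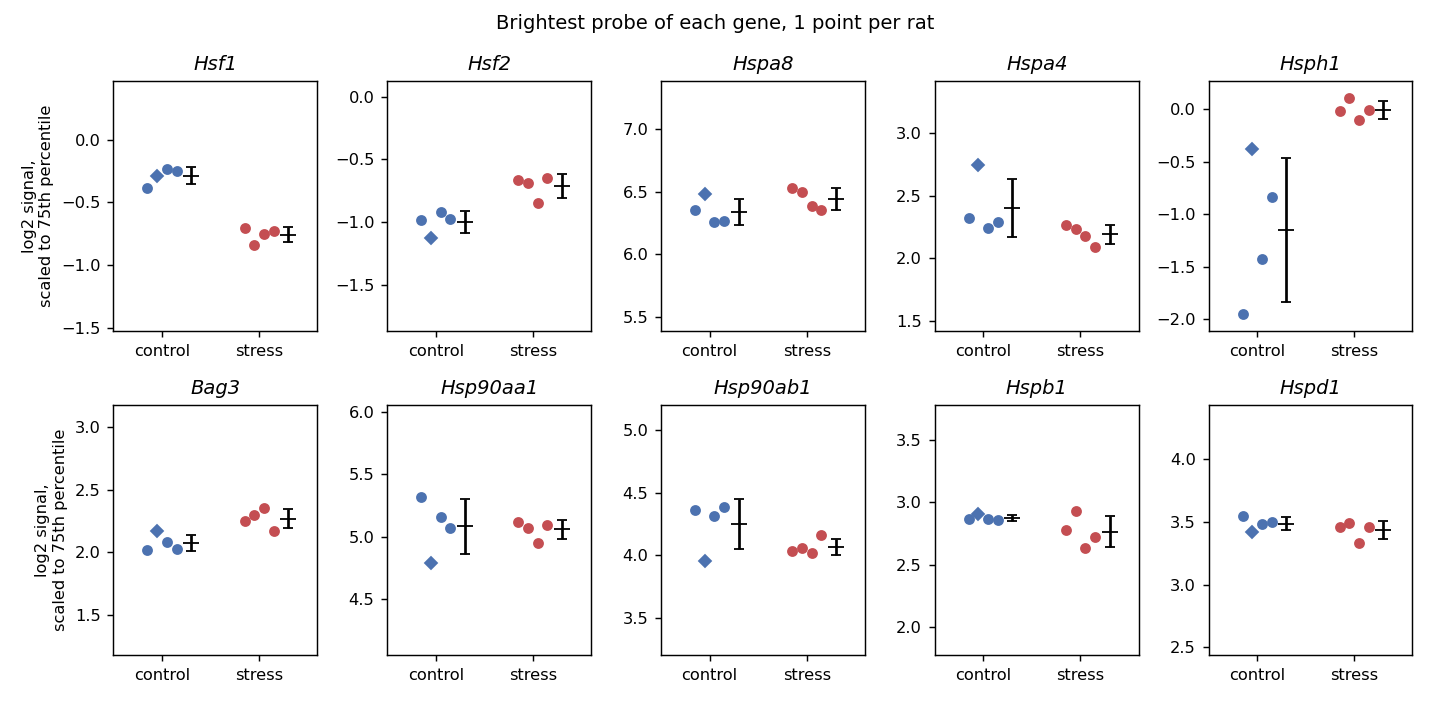
Scaled log2 signal (0 is the 75th percentile of the array) of the brightest probe of each of the 10 genes, with 1 point per rat and the mean with SD of each group beside the points; diamonds mark control replicate 2, and each panel has its own axis, which spans 2 log2 units or more. Hsf1 was lower in all 4 stressed rats, Hsf2, Hsph1 and Bag3 were higher in all 4, Hspd1 differed by -0.05, and control replicate 2 lay away from the other controls for Hspa4, Hsp90aa1 and Hsp90ab1.

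Hsf2 encodes the second heat shock factor and forms mixed trimers with HSF1. Both of its probes were brighter under stress, against the direction of Hsf1. Its brighter probe, from base 2297 of the transcript, had -0.98, -1.13, -0.92 and -0.97 in control replicates 1 to 4 and -0.67, -0.69, -0.85 and -0.64 under stress. The groups did not overlap, with a difference of 0.29 (SE 0.08), 0.25 without control replicate 2 and 0.39 with the balance as a covariate. Its dim probe, from base 1319, had -5.12, -4.05, -4.92 and -4.84 in controls and -3.59, -3.34, -3.54 and -3.53 under stress. Here control replicate 2 was the control closest to the stressed rats, and the difference was 1.23 (SE 0.22), 1.46 without that rat and 0.71 with the balance as a covariate. With a normexp background correction the difference of the dim probe was 0.70. The direction of both Hsf2 probes was thus the same, and the size was not.

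Hspa8 encodes HSC70, the HSP70 protein that every cell makes without stress. Its 4 probes gave different answers. The probe from base 523 had 2.06, 3.46, 2.11 and 2.44 in control replicates 1 to 4 and 3.32, 3.43, 3.35 and 3.26 under stress. Control replicate 2 lay above every stressed rat and the other 3 controls lay below them all, and the difference was 0.82 (SE 0.29), 1.13 without control replicate 2 and 0.08 with the balance as a covariate. The probe from base 1860, the brightest, had 6.35, 6.48, 6.26 and 6.27 in controls and 6.53, 6.50, 6.38 and 6.35 under stress. Its difference was 0.10 (SE 0.08), 0.15 without control replicate 2 and -0.00 with the balance as a covariate. The probe from base 483 differed by 0.76 (SE 0.25), 1.02 without control replicate 2 and 0.14 with the covariate. The probe from base 1800 differed by 0.18 (SE 0.08), 0.23 without control replicate 2 and 0.08 with the covariate. The Hspa8 probes from bases 483 and 1800 each list 2 further RefSeq transcripts, so signal from near-identical copies is uncertain there, and the other Hspa8 probes list none.

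Hsph1 encodes HSP105, an HSP110 protein that releases nucleotide from HSP70 and is strongly induced by heat. It had -1.95, -0.38, -1.42 and -0.83 in control replicates 1 to 4 and -0.02, 0.11, -0.10 and -0.00 under stress. All 4 stressed rats lay above all controls and close to each other (SD 0.09), while the controls were widely spread (SD 0.69). The difference of Hsph1 was 1.14 (SE 0.31), a ratio of 2.21, and it was 1.40 without control replicate 2 and 0.48 (SE 0.24) with the balance as a covariate. Hspa4, an HSP110 relative in the cytosol, had 2.32, 2.74, 2.24 and 2.29 in controls and 2.26, 2.23, 2.18 and 2.09 under stress. Control replicate 2 was the highest of the 8 rats, and the difference of -0.21 (SE 0.12) became -0.09 without it and -0.47 with the balance as a covariate. Bag3, a co-chaperone that hands clients of HSP70 to autophagy, had 2.02, 2.17, 2.08 and 2.03 in controls and 2.25, 2.30, 2.35 and 2.17 under stress. The lowest stressed rat and control replicate 2 were both at 2.17 after rounding, with no overlap of the groups, and the difference of Bag3 was 0.19 (SE 0.07), 0.23 without control replicate 2 and 0.12 with the balance as a covariate.

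The HSP90 genes showed no common shift. Hsp90aa1 encodes the inducible HSP90 and Hsp90ab1 the constitutive form. The brightest Hsp90aa1 probe, from base 2648, had 5.32, 4.79, 5.15 and 5.07 in control replicates 1 to 4 and 5.12, 5.07, 4.95 and 5.09 under stress. Its difference was -0.02 (SE 0.12), -0.12 without control replicate 2 and 0.21 with the balance as a covariate. The Hsp90aa1 probe from base 2397 had 3.51 in control replicate 2 and 4.40 to 4.56 in the other controls, with 3.97 to 4.26 under stress. Its difference was -0.08 (SE 0.22), -0.31 without control replicate 2 and 0.47 with the covariate, and the Hsp90aa1 probe from base 1575 differed by 0.02 (SE 0.09), 0.05 without that rat and -0.06 with the covariate. All 3 Hsp90aa1 probes list 2 further RefSeq transcripts, and of the probe from base 2397 the files place only 14 bases at the given position. For Hsp90ab1, the probe from base 2082 had 4.36, 3.95, 4.31 and 4.39 in controls and 4.04, 4.06, 4.02 and 4.16 under stress. Without control replicate 2 the controls lay above all stressed rats, with a difference of -0.28 against -0.18 (SE 0.11) over all rats and 0.04 with the balance as a covariate. The Hsp90ab1 probe from base 1469 went the other way, with 0.21 (SE 0.12), 0.31 without control replicate 2 and -0.05 with the covariate.

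Hspb1 and Hspd1 differed between the groups by less than the SD of the stressed rats. Hspb1 encodes HSP27, the small heat shock protein of sensory and motor neurons that rises after nerve injury. It had 2.86, 2.91, 2.87 and 2.86 in controls (SD 0.02) and 2.78, 2.93, 2.63 and 2.72 under stress. The stressed rats spread on either side of the controls, and the Hspb1 difference was -0.11 (SE 0.08), -0.10 without control replicate 2 and -0.13 with the balance as a covariate. Hspd1 had 3.54, 3.42, 3.48 and 3.50 in controls and 3.46, 3.49, 3.33 and 3.46 under stress. The groups overlapped, with a difference of -0.05 (SE 0.07), -0.08 without control replicate 2 and 0.00 with the balance as a covariate.

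**Figure D2:**
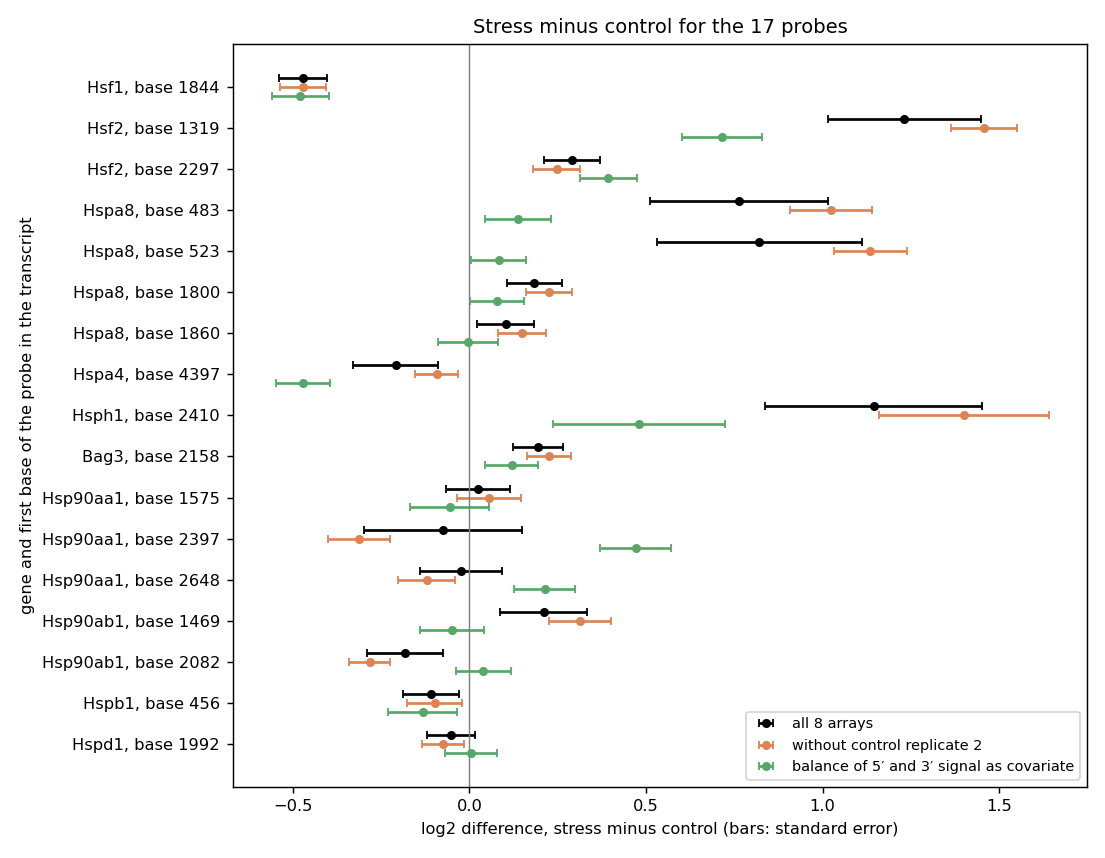
Log2 difference, stress minus control, of each of the 17 probes with its standard error as a bar, labelled by gene and by the first base of the probe in the transcript; black points use all 8 arrays, orange points leave out control replicate 2 and green points add the 5′ minus 3′ balance as a covariate. The 3 values of Hsf1 lie on each other at -0.47 to -0.48, while those of the Hspa8 probe from base 523 run from 0.08 to 1.13.

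Over the 17 probes, 10 had a higher mean under stress and 6 had groups that did not overlap, beside 12.1% of all 23677 tested probes without overlap. At a false discovery rate (FDR) below 0.1, 2 of the 17 were called, the Hsf1 probe (lower) and the dim Hsf2 probe (higher), beside 3.74% of all tested probes. Without control replicate 2 the counts were 11 of 17, beside 42.4% of all tested probes. As the genes were chosen from this contrast, nothing is read from these counts. By the brightest probe of each gene, the median difference of the 10 genes was -0.04, beside 0.02 for all 13359 tested gene symbols.

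The position of a probe in its transcript went with its difference. In each of the 4 genes with more than 1 probe, the probe nearest the 5′ end had a higher stress minus control difference than the one nearest the 3′ end. The gap was 0.94 for Hsf2, 0.66 for Hspa8, 0.39 for Hsp90ab1 and 0.05 for Hsp90aa1. It was not particular to these genes, as the 5′ probe had the higher difference in 1513 of the 1885 transcripts (80.3%), with a median gap of 0.28. Without control replicate 2 the gaps were 1.21, 0.87, 0.60 and 0.18, in the same order of genes, and the median over all transcripts was 0.41. With the balance as a covariate they were 0.32, 0.14, -0.09 and -0.27, and the 5′ probe had the higher difference in 49.1% of transcripts, which follows from what the covariate takes out. The position of the probe was not varied for Hsf1, Hspa4, Hspb1, Hsph1, Hspd1 and Bag3, which have a single probe each, and the part of the balance in their values cannot be read from a second probe.

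**Figure D3:**
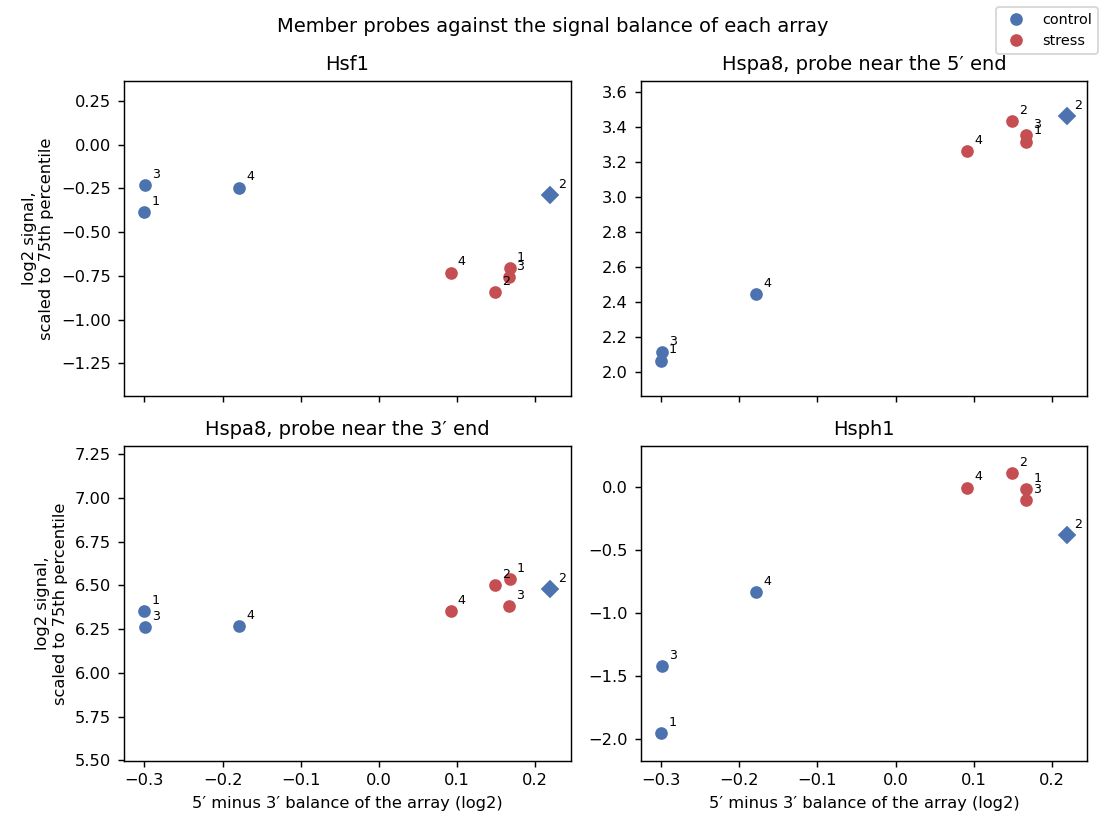
Scaled log2 signal (0 is the 75th percentile of the array) of 4 probes against the 5′ minus 3′ balance of the array, with 1 point per rat labelled by its replicate number, blue for control and red for stress, and a diamond for control replicate 2. Control replicate 2, at a balance of 0.22, lies with the stressed rats for the Hspa8 probe near the 5′ end (3.46) and nearest to them for Hsph1 (-0.38), and with the other controls for Hsf1 (-0.29).

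Among all gene symbols, those whose brightest probe was most like Hsf1 over the 8 rats were Srm (Pearson r 0.99), Mars (0.99), Sf3a2 (0.98), Emd (0.98) and Slc27a4 (0.98). They encode spermidine synthase, methionyl-tRNA synthetase, a subunit of a splicing factor, the inner nuclear membrane protein emerin and a fatty acid transporter. All 8 points share the arrays, their scaling and the difference between the groups, so r is given as a description with no p. The differences of these genes were -0.41, -0.15, -0.30, -0.29 and -0.37. Of the heat shock genes, Hsp90ab1 (0.56), Hspa4 (0.53) and Hspb1 (0.49) had the highest r with Hsf1, at ranks 2237, 2450 and 2768, and Hsf2 (-0.84) and Bag3 (-0.83) had the lowest. As the genes were chosen from the same contrast, nothing is read from these ranks.

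The rest of the chaperone network was read from lists by role, with the brightest probe for each gene. Of 73 further genes 67 were found on the array and tested, and all p values are adjusted over all 23677 probes by the Benjamini-Hochberg method in limma. By the FDR below 0.1, 2 of the 67 were higher, beside 2.34% of all tested gene symbols called higher, and 1 was lower, beside 1.28% called lower. Their median difference was 0.01, beside 0.02 for all symbols, and 37 of 67 were above 0. Without control replicate 2 the counts were 20 higher and 8 lower, beside 26.5% and 14.6% of all symbols. The counts of the network were thus near those of all genes in both readings. Leaving out any 1 of the other 7 rats left 0 network genes called by limma, with 15 to 20 of all 77 at an unadjusted p below 0.05, so each call below rests on all 8 arrays or on the 7 without control replicate 2.

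Hspa9 rose the most. It encodes mortalin, the HSP70 protein of the mitochondrial matrix, which draws proteins through the inner membrane. It had -1.40, -0.15, -1.28 and -1.16 in control replicates 1 to 4 and 0.39, 0.54, 0.42 and 0.42 under stress. The groups did not overlap, and control replicate 2 was the control nearest to the stressed rats. The Hspa9 difference was 1.44 (SE 0.26, limma adjusted p = 0.0590), 1.72 without control replicate 2 and 0.80 with the balance as a covariate. The other 5 mitochondrial chaperones that are not among the 10 genes were not called over all 8 arrays. Without control replicate 2, 1 of them was called higher, beside 26.5% of all symbols. Hspe1, chosen here because it shares the promoter match with Hspd1, differed by -0.08 (SE 0.06), -0.06 without control replicate 2 and -0.13 with the balance as a covariate. These are values of its brightest probe, and the other tested Hspe1 probe went the other way, at 0.16 over all 8 arrays.

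Cryab, the small heat shock protein alpha B-crystallin of oligodendrocytes and astrocytes, also rose. It had 4.67, 4.74, 4.55 and 4.51 in controls and 5.07, 4.98, 5.19 and 4.94 under stress. Its groups did not overlap and control replicate 2 lay among the controls, with a difference of 0.43 (SE 0.09, limma adjusted p = 0.0741), 0.47 without control replicate 2 and 0.34 with the balance as a covariate. Of the 9 small heat shock proteins apart from Hspb1, 1 was called higher, beside 2.34% of all gene symbols. Without control replicate 2, 5 of the 9 were called higher, beside 26.5% of all symbols. Differences were above 0 in 7 of the 9, beside 7221 of all 13359 symbols. The median difference of the 9 was 0.30, beside 0.02 for all symbols. The largest of the 9 was that of Hspb8, the partner of BAG3, at 0.56 (SE 0.18, limma adjusted p = 0.159), which was 0.74 (limma adjusted p = 0.00163) without control replicate 2 and 0.14 with the balance as a covariate. The median of the 9 was 0.14 with that covariate. Markers of oligodendrocytes and astrocytes stood higher by a median of 0.20 and 0.28, with 1 of 6 and 0 of 6 called. Those of neurons and endothelial cells stood higher by 0.17 each and of microglia by 0.08. The lists of motor neurons, Schwann cells, meninges and red blood cells stood lower. Summed levels of the oligodendrocyte and astrocyte markers overlapped between the groups. The part of these cells in the Cryab result was not tested.

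Hspa1l, an HSP70 gene active mainly in the testis, fell by 0.48 on the log2 scale (SE 0.11, limma adjusted p = 0.0832), from -6.16, -6.24, -6.08 and -6.36 in controls to -6.67, -6.94, -6.56 and -6.62 under stress. The probe was dim, was not well above background on 1 of the stressed arrays, and differed by -0.49 without control replicate 2, by -0.43 with the balance as a covariate and by -0.03 with the normexp background correction. The other 6 HSP70 genes were not called over all 8 arrays, with the largest difference in Hspa2, at 0.51 (SE 0.28, limma adjusted p = 0.323). The Hspa2 difference was 0.70 (limma adjusted p = 0.0723) without control replicate 2 and -0.00 with the balance as a covariate. Hspa1b, the heat-induced HSP70 that serves as the usual readout of HSF1, was named after its values were seen. It had -2.63, -2.54, -2.81 and -2.83 in controls and -2.36, -1.97, -2.05 and -2.59 under stress. Of the controls only replicate 2 lay above the lowest stressed rat. The Hspa1b difference was 0.46 (SE 0.15, limma adjusted p = 0.166), 0.51 (limma adjusted p = 0.0447) without control replicate 2 and 0.32 with the balance as a covariate.

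Over all 8 arrays no gene was called in the other lists, and without control replicate 2 genes of most of them were. Of all tested gene symbols, 26.5% were called higher and 14.6% lower without control replicate 2. Over all 8 arrays 7221 of 13359 symbols were above 0. The further genes of the Hsf family and its regulators were Hsf4, itself a heat shock factor, Hsf2bp and Hsbp1. Without control replicate 2, Hsbp1 was called higher (0.21) and Hsf4 lower (-0.27), both named after their values were seen. Their largest difference over all arrays was that of the dim Hsf2bp, at 0.53 (SE 0.41, limma adjusted p = 0.477), which was 0.21 without control replicate 2 and 1.32 with the balance as a covariate. Of 15 co-chaperones of HSP90, 8 were above 0, and without control replicate 2, 3 were called higher and 2 lower. They were led by Ahsa2, an activator of the HSP90 ATPase, at 0.42 (SE 0.12, limma adjusted p = 0.126), 0.53 (limma adjusted p = 0.00165) without control replicate 2 and 0.17 with the covariate.

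Of 9 HSP40 partners, 7 were above 0, beside 7221 of all 13359 gene symbols. Without control replicate 2, 4 were called higher and 1 lower, beside 26.5% and 14.6% of all symbols. Dnaja1, whose promoter window holds a 3-unit match, differed by 0.33 (SE 0.08, limma adjusted p = 0.110), 0.29 (limma adjusted p = 0.0307) without control replicate 2 and 0.39 with the covariate. Dnajb1, the HSP40 induced most with HSP70 and also named after its values were seen, differed by 0.07 (SE 0.08), 0.08 without control replicate 2 and 0.02 with the covariate. Of 8 subunits of the TRiC chaperonin, which folds actin and tubulin, 4 were above 0, and without control replicate 2, 2 were called higher and 2 lower. Cct4 led them at 0.38 (SE 0.11, limma adjusted p = 0.128), 0.48 (limma adjusted p = 0.00225) without control replicate 2 and 0.16 with the covariate.

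Of the 5 BAG and exchange factor genes apart from Bag3, 1 was called higher and 1 lower without control replicate 2. The shares of all symbols were 26.5% and 14.6%. These genes were led by Hspbp1, a regulator of nucleotide exchange on HSP70. Its difference was 0.32 (SE 0.19), 0.50 (limma adjusted p = 0.0124) without control replicate 2 and -0.09 with the covariate. The 4 other known HSF1 targets were led by Serpinh1, the collagen chaperone HSP47, at -0.16 (SE 0.08), -0.18 without control replicate 2 and -0.14 with the covariate. The single HSP110 gene not among the 10, Hspa4l, differed by -0.05 (SE 0.07), -0.04 without control replicate 2 and -0.08 with the covariate.

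**Figure D4:**
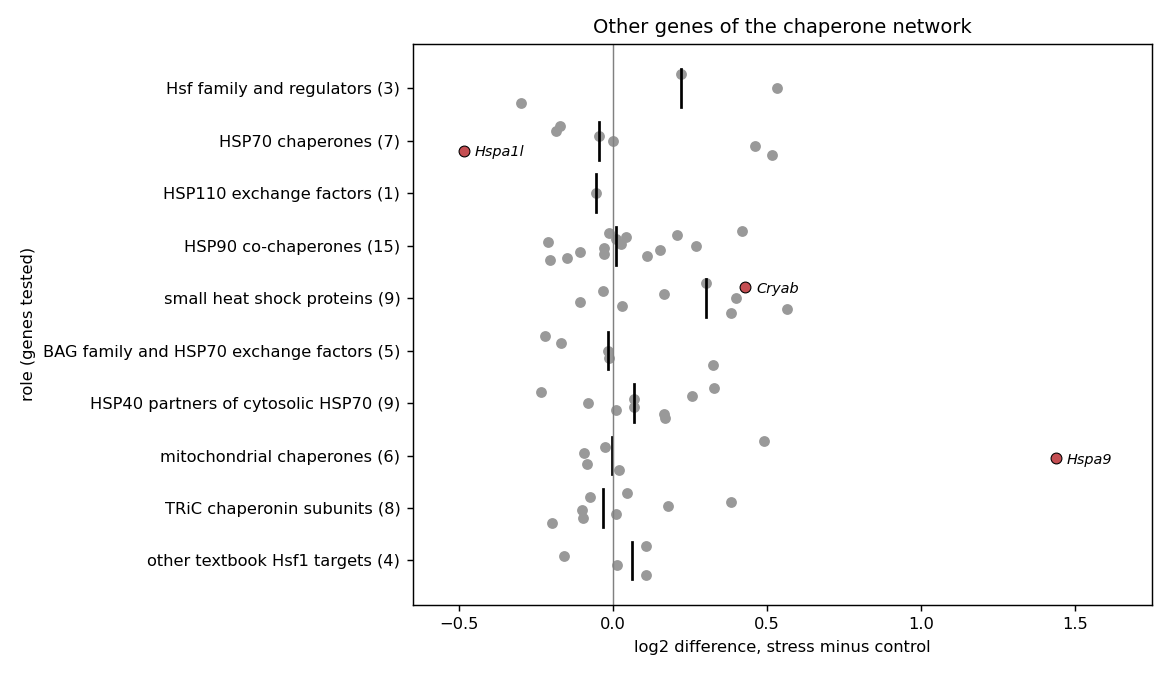
Log2 difference, stress minus control, of 67 further genes of the chaperone network over all 8 arrays, with 1 point per gene by role, the number of genes in brackets and a black line at the median of each list; red points passed the FDR below 0.1. Hspa9 at 1.44 and Cryab at 0.43 are higher, Hspa1l at -0.48 is lower, and most of the other genes lie on either side of 0.

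Promoter matches were also counted in the wider network. In the network outside the 10 genes, windows were found for 60 genes, of which 17 (28.3%) held at least 2 units and 5 (8.33%) at least 3. A gene was counted if any of its windows held a match, while the shares of all promoters given above count windows. The lists include known HSF1 targets, so nothing is read from these shares. The 5 genes with at least 3 units were Chordc1, Dnaja1, Hspe1, Cct4 and Serpinh1. By the brightest probe of each, their differences were 0.04, 0.33, -0.08, 0.38 and -0.16, and the other tested Hspe1 probe differed by 0.16. None of the 5 was called over all 8 arrays. Dnaja1 and Cct4 were called higher without control replicate 2, beside 26.5% of all symbols.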

How the data were processed

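The authors deposited 1 scanner file per rat, made with Agilent Feature Extraction 10.7.3.1, and a table of values. The processed fluorescence intensity they deposited is background-subtracted within each array, per the file headers, and the deposited table rounds that signal. The 75th percentile differs from array to array in both, so no scaling across arrays was seen. The aligner of the probes is not given in the sources used here. Positions of probes are on rn4.

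Control spots (4259) were left out, and 58717 other spots of 30367 probes were used. The log2 intensity minus the 75th percentile of each array was averaged over the spots of a probe, with spots flagged as outliers by the scanner set to missing after scaling. Probes well above background (at least 0.5 of spots) on at least 4 of the 8 arrays were tested. The contrast was fitted without covariates by lmFit and eBayes of limma 3.58.1, under R 4.3.3 (data.table, version 1.17.8), and p values were adjusted after Benjamini and Hochberg over 23677 probes. Gene symbols exclude clone, transcript and locus identifiers. The fit was tested on simulated data. Sequences were searched with Python 3.11.15, and figures drawn with pandas 2.3.3 and matplotlib 3.10.9. The replicates are separate rats. No depth exists for arrays, and their number limits the precision.

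The members and lists were chosen with earlier results of these data known. Named genes are the 10 members, the network genes called at FDR below 0.1, the gene with the largest difference in each list and the 5 symbols most like Hsf1. Others are marked as named after their values were seen, and the genes whose promoters match are named for that. Alternatives were a normexp background correction (offset 50), quantile normalization, scaling to the median, the deposited table, other filters, a variance trend, array weights, the replicate number as a block, the 5′ minus 3′ balance as a covariate, 1 probe per symbol and leaving out each array.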

Additional observations from a re-analysis of the deposited data

Results flagged for a closer look

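In 3 of the 34 groups of 4 rats formed by the 17 probes, 1 rat lay far from the other 3 by Dixon's ratio of its gap to the range of the group, past the usual critical value. Chance gives about 1.7 such groups of 34. In all 3 the rat was control replicate 2. The ratio was 0.855 for Hspa4, where this rat was the highest control at 2.74, 0.844 for the Hsp90aa1 probe from base 2397, where it was the lowest at 3.51, and 0.840 for Hspb1, where it was the highest at 2.91 in a group that spans under 0.1 log2 units. The same array has the 5′ minus 3′ balance of 0.22, beside -0.30 to -0.18 in the other controls.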

How the results depend on the processing

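Counts at FDR below 0.1 depended on single arrays and settings. Over the 17 probes of the 10 genes, 2 were called with all arrays, 1 with the normexp background correction, 4 each with scaling to the median, no filter on dim probes or a variance trend with robust estimation, 5 with the balance as a covariate, 12 with array weights and 1 of 10 with 1 probe per gene symbol. Leaving out each rat in turn gave 0 to 11, with 11 without control replicate 2 and 0 without any other rat, where 5 to 7 probes had an unadjusted p below 0.05. For the whole network of 77 tested genes, the 10 included, 4 were called, and 2 with normexp, 8 each with quantile normalization or a variance trend, 9 each with scaling to the median, no filter or the balance as a covariate, and 39 with array weights, while leaving out each rat gave 0 to 33, with 33 without control replicate 2 and 0 otherwise (15 to 20 at an unadjusted p below 0.05). Of all tested probes 885 were called, and 215 with normexp, 3010 of 30357 without a filter, 2390 with the balance as a covariate, 11983 with array weights and 0 to 10038 with each rat left out, 10038 of these without control replicate 2. Array weights gave control replicate 2 a weight of 0.107. The cause of these shifts was not tested. As the 10 genes were chosen from this contrast, nothing is read from the counts of their probes.

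The difference of Hsf1 was below 0 in all 19 alternatives. Other filters, the variance trend, the replicate block and 1 probe per symbol cannot change the difference of a probe, so they do not check it. The deposited table holds the same signal, rounded. As Hsf1 was chosen by this contrast, nothing is read from its direction. It ranged from -0.50 to -0.44 with each rat left out and was -0.59 with scaling to the median. That scaling moved the median difference of all tested probes from 0.06 to -0.05, so all differences were lower under it. The brightest Hspa8 probe was at 0.10 over all 8 arrays, 0.14 with normexp, 0.18 with array weights and 0.07 to 0.15 with each rat left out. It was just below 0 with scaling to the median (-0.01), quantile normalization (-0.00) and the balance as a covariate (-0.00). The called probes of Hsf1 and Hsf2 kept their direction in every alternative that fitted them. The dim Hsf2 probe was not fitted with 1 probe per symbol, where the brighter probe stood for Hsf2.

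The replicate numbers are shared by the groups, but the labels give no pairing, and the correlations of same-numbered deviations were 0.10, 0.12, -0.09 and 0.31, so the samples were not treated as paired. With the number as a replicate block, 0 of the 17 probes, 0 of the network and 0 of all probes were called by limma, with 7, 19 and 4292 at an unadjusted p below 0.05, and the Hsf1 difference was -0.47. The number of arrays limits these values, as does signal over background for Hspa1l, which was not well above background on 1 array.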
